A study of Mus musculus with 17 samples.

Results

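The small-intestinal epithelium of young adult mice was compared with that of suckling pups, in mice nursed by a dam that makes no IgA. The comparison took every library whose title names an IgA -/- dam at day of life 42 (3 libraries) or day of life 14 (3 libraries), which is 6 of the 17 libraries of the series. All mice, in these groups and in the control groups, carried the genotype Igha -/+ on the C57BL/6 strain and were bred from a C57BL/6 and an IgA-deficient parent, so that they can make IgA themselves. The groups of the study differ in the nursing dam, IgA -/- or C57BL/6 (B6), which sets whether milk brings IgA, and in age (days 14, 24 and 42). RNA came from sorted EpCAM+ CD45- Ter119- cells of the small intestine, which are epithelial cells without leukocytes and red cells, and no segment of the intestine is named in the labels. Libraries were made with the SMART-seq v4 kit, which copies full-length transcripts from little RNA. The labels name no litter and do not say whether a library is 1 animal or a pool, so p-values measure only the spread between these samples. The sample descriptions hold a number that was read here as a date, though the labels do not call it one. It is one number for the 3 day 14 libraries and another for the 3 day 42 libraries, so age and what this number stands for cannot be told apart. Sorted cells were frozen, and RNA of all groups was extracted once collection had ended.

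Between these ages mice pass from milk to solid food. A suckling enterocyte takes up whole milk proteins by endocytosis, through the cubilin, amnionless and Dab2 complex and the neonatal Fc receptor, digests them in large lysosomes, splits lactose and absorbs and burns milk fat. The adult enterocyte loses this uptake, splits sucrose and starch sugars, and lives beside a dense microbiota to which it answers with antimicrobial lectins, a receptor that exports IgA (Pigr) and, in some segments, MHC class II, the complex that presents peptides to helper T cells. Enterocytes share the epithelium with hormone-making enteroendocrine cells, chemosensory tuft cells, mucus-making goblet cells, and the antimicrobial Paneth cells and stem cells of the crypt.

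Values are TPM (a share of transcripts, which is a level per length) divided by 1 size factor per library, called scaled TPM below, and fold changes are differences of log2(scaled TPM + 1), day 42 minus day 14. A gene passed when its limma p, adjusted over all 14243 genes tested, was under 0.05. Recovered depth was 8477226 to 11337164 reads per library at day 14 and 15515277 to 16959244 at day 42. Deposited TPM reached at least 1 for 13212 to 14257 genes at day 14 and 11436 to 11775 at day 42, and size factors were 1.41 to 1.84 and 0.986 to 1.10. The gene model Gm23935 alone took 40.2 to 61.6% of deposited TPM at day 14 and 51.2 to 60.7% at day 42. Mitochondrial transcripts took 13.7 to 28.9% and 21.3 to 30.2%. All other genes shared 24.7 to 30.9% at day 14 and 16.8 to 18.6% at day 42. The day 14 libraries thus stood apart from the day 42 libraries in depth and composition, and the part of this in the results was not tested. Epcam lay at 271, 244 and 272 scaled TPM at day 14 and 419.6, 393 and 368 at day 42. Ptprc, which encodes CD45, stayed at or below 0.732 scaled TPM and Igha at or below 0.0516, while Ddx3y, a Y-linked gene, was between 4.97 and 5.77 and Xist at or below 0.0773 in the 6 libraries.

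Of the 14243 genes tested, 4557 passed (32% of those tested), 2258 of them higher at day 42 (15.9%) and 2299 lower (16.1%). Every count of list members below is to be read beside these shares, and a count near them is no result about the list. At least 2-fold changes numbered 282 rises and 452 falls, and at least 8-fold changes 9 rises and 22 falls. The 3 libraries of one age lay wholly above those of the other for 4554 of the 4557 genes, and for 6976 of all 14243 tested (49%). The filter was passed only through the day 14 libraries by 2562 genes and only through the day 42 libraries by 296. Such genes lean to a difference by the way they were taken in, so list counts are also given over members that reached a TPM of 1 in at least 2 libraries of each age, where the numbers differ much. Of genes given below with an adjusted p, Gpc3, Mcoln3, Cym, Meltf, Prdm1, Ifit1 and Mptx1 reached this level at day 14 only. Ceacam10, H2-Eb1 and Duox2 did so at day 42 only. Their changes are descriptions, to which the adjusted p adds no support. Without day 42 replicate 1 the count was 2923, and without day 42 replicate 2 it was 3013, and without day 14 replicate 3 the lower calls numbered 1529. With TPM as deposited the median of all genes moved from -0.02 to -0.49 and the calls split into 343 higher and 7743 lower, so that list medians below are to be read against that shift where this scaling is named. In bulk libraries, fewer cells of a type and less RNA per cell cannot be told apart.

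Among the largest rises were those of antigen presentation and antimicrobial genes, and among the largest falls those of calcium, fat and milk protein handling. Among named genes with a mean of at least 10 scaled TPM in the higher group, the 15 largest rises ran from 2.33 (Sh2d7, a tuft cell gene) to 4.92 (Cd74, the MHC class II invariant chain) on the log2 scale. The 15 largest falls ran from -3.25 (Folr1, a folate receptor) to -4.80 (S100g, the intestinal calcium-binding protein calbindin D9k). Maoa, a monoamine oxidase, was at 2.45, 2.14 and 2.04 scaled TPM at day 14 and 36.3, 37.1 and 24.18 at day 42 (log2 fold change 3.36, SE 0.17, adjusted p = 0.000144). The cytochrome P450 Cyp4f14 (2.99 ± 0.636 to 23.5 ± 6.45), the retinol carrier Rbp7 (1.09 ± 0.335 to 10.6 ± 2.12), the desaturase Scd2 (2.14 ± 0.344 to 16.4 ± 4.84) and the mitochondrial leucyl-tRNA synthetase Lars2 (27.8 ± 9.53 to 143 ± 11.8) rose too. The glypican Gpc3, a growth regulator of fetal tissue, was at 12.1, 14.16 and 13.3 scaled TPM at day 14 and 0.0913, 0.192 and 0.0852 at day 42 (log2 fold change -3.66, SE 0.08, adjusted p = 1.85e-05). The cytochrome P450 Cyp2w1 fell from 16.6 ± 1.72 to 0.166 ± 0.0178. The plot of list members shows the median of the suckling enterocyte genes near -2.13 and that of the tuft genes near 1.61, on either side of a median of -0.02 for all genes tested.

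**Figure D1:**
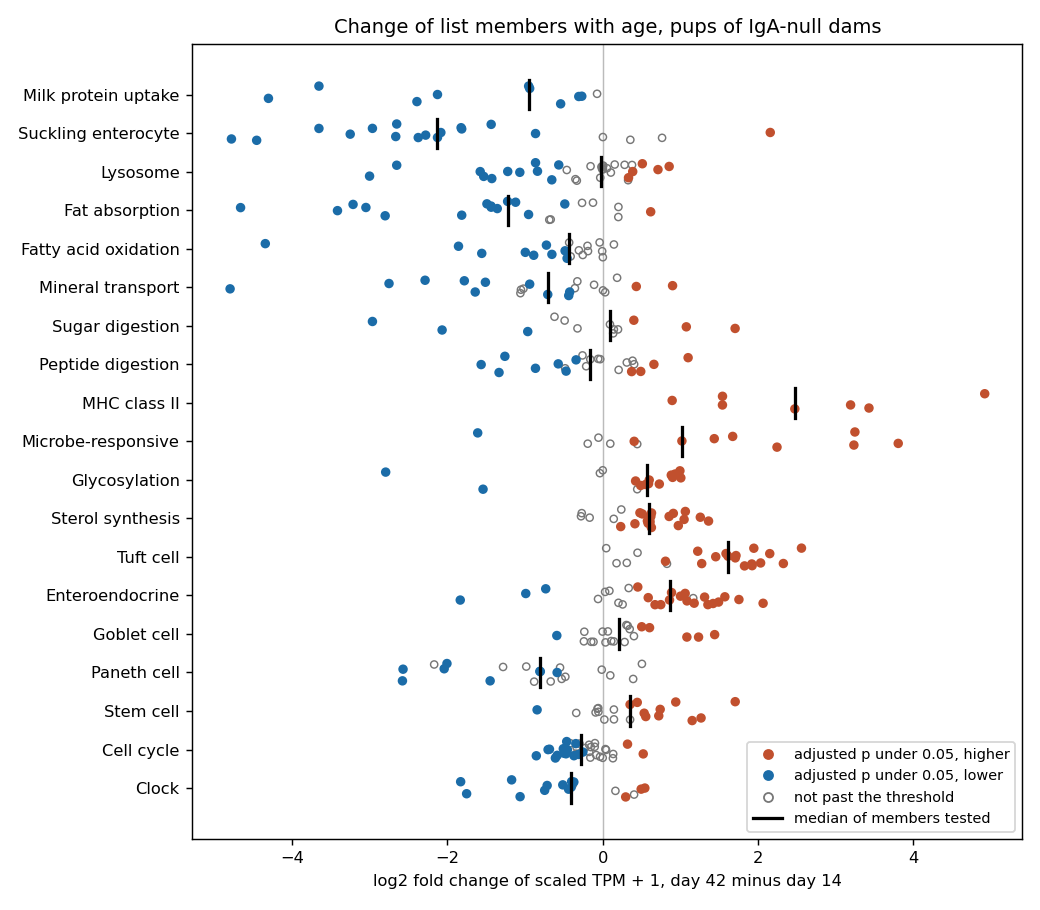
Each point is 1 tested gene of a list, placed by its log2 fold change of scaled TPM + 1 between day 14 and day 42 in pups of IgA-null dams; filled points passed (adjusted p under 0.05), open points did not, and black bars are medians of the members tested. Of the 10 milk uptake genes tested 9 are filled points to the left of 0, and of the 21 tuft genes 16 are filled points to its right.

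Genes of milk protein uptake fell. Of 10 tested genes of endocytosis, 9 were lower at day 42 and none higher, with a median log2 fold change of -0.95. Over the 8 that passed the filter at both ages 7 were lower, and 3 were lower in a fit over all 17 libraries. Fcgrt, the neonatal Fc receptor that carries milk IgG (chromosome 7, 45092990 to 45103851, GRCm38), was at 136, 72.9 and 123 scaled TPM at day 14 and 7.97, 7.83 and 6.94 at day 42 (log2 fold change -3.65, SE 0.23, adjusted p = 0.000294). All day 14 libraries were above all day 42 libraries, and replicate 2 was the lowest at day 14. Mamdc4, which encodes endotubin of the suckling endocytic apparatus, was at 31.998, 45.2 and 50.8 scaled TPM at day 14 and 1.06, 1.15 and 1.32 at day 42 (log2 fold change -4.30, SE 0.17, adjusted p = 7.32e-05). Dab2, the adaptor of the cubilin complex, went from 4.52 ± 1.76 to 0.0194 ± 0.00700 scaled TPM (SD, n = 3 each) and its partner amnionless, Amn, from 10.2 ± 1.15 to 4.79 ± 0.480. Dab2 was near 0 at day 42 and Amn was not, and the call of Amn was lost in a fit over all 17 libraries.

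Lysosomal genes did not move as 1 group. Of 32 tested, 11 fell, 5 rose and the median was -0.02, beside 16.1% lower and 15.9% higher of all genes tested. Over the 28 that passed the filter at both ages 7 fell and 5 rose. Mcoln3, a lysosomal ion channel, was at 8.17, 5.81 and 8.23 scaled TPM at day 14 and 0.0142, 0.0136 and 0.0926 at day 42 (log2 fold change -3.001, SE 0.13, adjusted p = 9.95e-05). The sialidase Neu1 (9.08 ± 0.693 to 2.48 ± 0.146) and beta-galactosidase Glb1 (8.23 ± 0.387 to 4.16 ± 0.133) fell as well. So did Npl, a listed but cytosolic enzyme that cleaves sialic acid (6.91 ± 1.71 to 0.255 ± 0.249). Renbp, an amino sugar epimerase outside the list, fell from 13.7 ± 3.13 to 0.359 ± 0.0730. The 5 rises, a share near that of all genes, were those of Ctsc, Ctsd, Ctsh, Nagpa and Scpep1, none of them above 0.86 on the log2 scale. Rises numbered 3 without day 42 replicate 1 or day 14 replicate 2, and 2 without day 42 replicate 2 or day 14 replicate 1. With TPM as deposited no rise and 21 falls passed. Ctsz, a lysosomal cathepsin and the listed gene with the highest mean, was at 47.9, 36.9 and 43.8 scaled TPM at day 14 and 33.7, 35.9 and 31.5 at day 42. This difference did not pass (log2 fold change -0.33, SE 0.11, adjusted p = 0.0605), though it did without day 14 replicate 2.

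Other markers of the suckling enterocyte fell too. Of 19 tested, 15 were lower and 1, the bile acid carrier Fabp6, was higher (1 higher and 16 lower with TPM as deposited, 0 and 10 in the fit over all 17 libraries). Of the 12 that passed the filter at both ages 8 were lower. Cym, the milk-clotting protease chymosin, was at 26.03, 23.7 and 33.7 scaled TPM at day 14 and 0, 0.0761 and 0.0371 at day 42 (log2 fold change -4.78, SE 0.13, adjusted p = 2.25e-05). Meltf, melanotransferrin, was at 16.03, 20.9 and 28.7 scaled TPM at day 14 and 0.0238, 0.0227 and 0 at day 42 (log2 fold change -4.46, SE 0.19, adjusted p = 9.34e-05). Both were near 0 in every day 42 library. Prdm1, the repressor Blimp1 that holds the suckling programme in place, was at 3.17, 3.49 and 4.68 scaled TPM at day 14 and 0.0880, 0.169 and 0.0986 at day 42 (log2 fold change -2.08, SE 0.13, adjusted p = 0.000309). The transcription factors Creb3l3 (33.99 ± 5.91 to 5.80 ± 1.62) and Nr2e3 (10.5 ± 1.00 to 1.20 ± 0.360) fell too. In the wider list of 31 intestinal transcription factors 10 fell and 7 rose, beside 16.1% lower and 15.9% higher of all genes tested, with a median of -0.04. The list held 0 higher and 18 lower with TPM as deposited, and 2 and 6 in the fit over all 17 libraries. The rises numbered 2 without day 42 replicate 1 and 3 without day 42 replicate 3 or day 14 replicate 3. Fetal growth genes fell in 4 of 7 tested (2 of the 5 that passed the filter at both ages), among them the RNA-binding protein Igf2bp3 (5.87 ± 0.505 to 0.276 ± 0.0657).

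Genes of fat handling fell, both those of absorption and those of oxidation. Of 21 tested fat absorption genes, 14 were lower and 1, Agpat2, was higher, with a median of -1.22, and in a fit over all 17 libraries 5 falls passed. Apoa4, an apolipoprotein of chylomicrons (chromosome 9, 46240696 to 46243459), was at 1514, 698 and 1223 scaled TPM at day 14 and 29.1, 89.8 and 28.2 at day 42 (log2 fold change -4.66, SE 0.50, adjusted p = 0.00171), and no day 42 library came near the day 14 range. Fabp1, the fatty acid carrier with the highest level in the list, was at 1526, 908 and 1547 scaled TPM at day 14 and 156, 210.2 and 114 at day 42 (log2 fold change -3.05, SE 0.29, adjusted p = 0.00124). Dgat2, which makes triglyceride, was at 39.4, 23.2 and 33.5 scaled TPM at day 14 and 1.75, 2.33 and 2.04 at day 42 (log2 fold change -3.41, SE 0.19, adjusted p = 0.000217). Of 19 fatty acid oxidation and ketone genes, 9 fell and none rose (0 higher and 18 lower with TPM as deposited, 0 and 7 in the fit over all 17 libraries). Acaa2, a thiolase of mitochondrial fatty acid oxidation, was at 125, 92.9 and 116 scaled TPM at day 14 and 37.4, 39.5 and 33.95 at day 42 (log2 fold change -1.56, SE 0.13, adjusted p = 0.000662). The ketone dehydrogenase Bdh1 fell from 39.1 ± 3.45 to 24.5 ± 2.39.

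The glucose production enzymes Pck1, G6pc and Fbp1 fell. Pck1, which makes phosphoenolpyruvate, was at 86.1, 45.5 and 58.7 scaled TPM at day 14 and 1.98, 2.47 and 1.32 at day 42 (log2 fold change -4.43, SE 0.25, adjusted p = 0.000225). Glucose 6-phosphatase, G6pc, went from 11.99 ± 4.66 to 0.302 ± 0.0975 and fructose bisphosphatase, Fbp1, from 23.4 ± 6.21 to 4.09 ± 1.11. Of the 8 genes listed for the pathway 3 fell and 2 rose (0 higher and 6 lower with TPM as deposited, 0 and 3 in the fit over all 17 libraries), and without day 14 replicate 2 the falls numbered 5. Over the 7 that passed the filter at both ages, which leave out G6pc, 2 fell and 2 rose. In the arginine list Ass1, which joins citrulline to aspartate, fell from 7.43 ± 1.41 to 1.37 ± 0.264. The arginase Arg2 was at 7.76, 2.69 and 3.84 scaled TPM at day 14 and 23.8, 33.8 and 17.4 at day 42 (log2 fold change 2.22, SE 0.36, adjusted p = 0.00619). This rise stood in a list in which 5 of 13 fell and 2 rose (1 higher and 10 lower with TPM as deposited, 3 and 4 in the fit over all 17 libraries).

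Of 13 genes of sugar digestion 3 were higher and 3 lower (1 higher and 5 lower with TPM as deposited, 0 and 0 in the fit over all 17 libraries), beside 15.9% higher and 16.1% lower of all genes tested. A share this near to that of all genes is no result about the list, and the genes below are described singly. Lct, lactase, was at 89.3, 44.4 and 65.6 scaled TPM at day 14 and 7.50, 12.2 and 4.13 at day 42 (log2 fold change -2.96, SE 0.38, adjusted p = 0.00313). Sis, sucrase-isomaltase, was at 15.6, 6.396 and 9.52 scaled TPM at day 14 and 36.6, 43.3 and 25.9 at day 42 (log2 fold change 1.71, SE 0.32, adjusted p = 0.00976). Mgam, maltase-glucoamylase, rose from 33.4 ± 7.52 to 70.5 ± 4.76 and the basolateral glucose transporter Slc2a2 fell from 8.87 ± 4.52 to 1.27 ± 0.832. All 4 lost the call in a fit over all 17 libraries, with adjusted p of 0.0723 for Lct, 0.121 for Sis, 0.105 for Mgam and 0.123 for Slc2a2. Without day 42 replicate 2 the median of the sugar list went from 0.09 to -0.38. Ceacam10, a cell adhesion molecule of the adult enterocyte list, was at 0, 0 and 0.113 scaled TPM at day 14 and 6.70, 7.51 and 6.10 at day 42 (log2 fold change 2.90, SE 0.10, adjusted p = 4.72e-05). Of 21 peptide digestion and amino acid transport genes 7 fell and 4 rose, the rises near the 15.9% of all genes tested (1 higher and 10 lower with TPM as deposited, 1 and 0 in the fit over all 17 libraries). Among the rises was the glutamate transporter Slc1a1 (1.14 ± 0.282 to 3.56 ± 0.211). The median of the peptide list was -0.16, and without day 42 replicate 1 or day 14 replicate 3 it held 2 rises and 3 falls. Leaving out any of the other four libraries took either its falls to 3 or its rises to 2.

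Mineral transport fell in 10 of 21 genes and rose in 2, with 5 falls in a fit over all 17 libraries and 18 with TPM as deposited. Over the 17 genes that passed the filter at both ages 7 fell and 2 rose. S100g (chromosome X, 162961992 to 162964599) was at 1006, 380.4 and 416 scaled TPM at day 14 and 13.3, 28.6 and 16.6 at day 42 (log2 fold change -4.80, SE 0.43, adjusted p = 0.000972). Replicate 1 was the highest day 14 library, and all day 14 libraries exceeded all day 42 libraries. Slc30a10, a manganese exporter, fell from 7.86 ± 3.24 to 0.277 ± 0.224. The vitamin D receptor Vdr, which drives S100g transcription in the intestine, went the other way, at 18.3, 17.2 and 17.05 scaled TPM at day 14 and 33.4, 34.7 and 32.5 at day 42 (log2 fold change 0.90, SE 0.06, adjusted p = 0.000429). Its call was lost with TPM as deposited (log2 fold change 0.29, adjusted p = 0.115). In the bile acid list Fabp6, the ileal bile acid carrier, was at 12.8, 12.3 and 7.91 scaled TPM at day 14 and 47.5, 33.7 and 85.2 at day 42 (log2 fold change 2.16, SE 0.34, adjusted p = 0.0059). Its call was lost in the fit over all 17 libraries (adjusted p = 0.088). The ileal hormone Fgf15, which shuts down bile acid synthesis in the liver, fell from 1.97 ± 0.895 to 0.0816 ± 0.0691. The list as a whole held 5 falls and 2 rises among 8 genes (1 higher and 6 lower with TPM as deposited, 0 and 1 in the fit over all 17 libraries), with 2 falls without day 42 replicate 1 and 3 without day 42 replicate 3. Over the 6 that passed the filter at both ages, which leave out Fgf15, 4 fell and 2 rose.

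**Figure D2:**
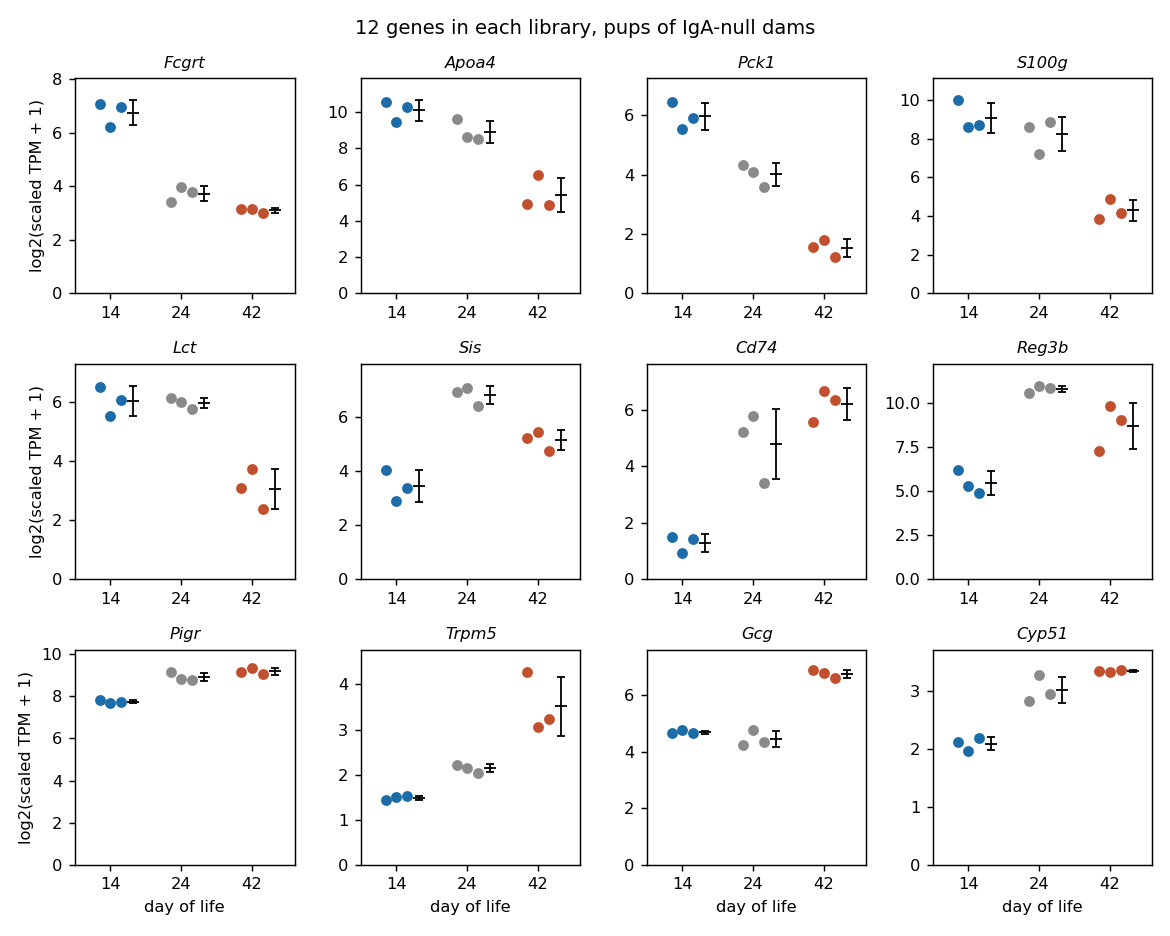
Level of 12 genes as log2(scaled TPM + 1) against day of life, with 1 point per library (replicates 1, 2 and 3 from left to right) and the mean with SD beside them, n = 3 each. Fcgrt is already low at day 24, whereas Lct is still near its day 14 level then and S100g nearer to day 14 than to day 42, and Sis and Reg3b are highest at day 24.

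The day 24 libraries of the same dam give the order of these changes as levels only. Fcgrt was at 12.4 ± 2.52 scaled TPM at day 24, against 61.1 ± 7.70 for Lct and 333 ± 165 for S100g (SD, n = 3 each). Of the 452 falls of at least 2-fold, the mean log2 level at day 24 was nearer to day 42, or beyond it, for 278 genes, and nearer to day 14 or beyond it for 174. Of the 282 rises the counts were 165 and 117. Day 24 and day 42 libraries share the number read as a date and day 14 libraries do not.

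Cd74 and H2-Ab1 of the MHC class II pathway rose. Of the 8 genes listed 7 were tested, and 5 of these passed the filter only through their day 42 level, so that their rise is given below as a description. With no filter 6 of 8 were higher and 0 lower, with a median log2 fold change of 2.01. The promoters of 3 class II genes and of 2 sterol synthesis genes are shown because class II genes share an upstream module, an X box (bound by RFX) and a Y box, which is an inverted CCAAT bound by NF-Y, and because NF-Y also acts beside SREBP at sterol genes. Each sequence is the 250 bases before the RefSeq start on the gene's strand (GRCm38.p6), with CCAAT or its complement ATTGG and the letters ACNGATG, on either strand, in capitals. The windows were chr17:34305617-34305866 for H2-Eb1 and chr17:34152941-34153190 for H2-DMb1 on the plus strand, and chr17:34287824-34288073 for H2-Aa, chr5:4104698-4104947 for Cyp51 and chr8:64733579-64733828 for Msmo1 on the minus strand.
H2-Eb1: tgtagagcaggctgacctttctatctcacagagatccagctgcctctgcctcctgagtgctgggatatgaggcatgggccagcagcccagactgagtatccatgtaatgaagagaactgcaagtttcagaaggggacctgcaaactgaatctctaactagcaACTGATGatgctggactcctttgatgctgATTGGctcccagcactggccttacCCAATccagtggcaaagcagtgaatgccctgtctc
H2-Aa: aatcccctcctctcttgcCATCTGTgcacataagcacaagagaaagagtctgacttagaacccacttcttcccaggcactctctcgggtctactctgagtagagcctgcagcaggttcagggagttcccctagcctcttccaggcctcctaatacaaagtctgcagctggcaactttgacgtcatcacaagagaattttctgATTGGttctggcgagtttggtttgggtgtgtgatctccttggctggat
H2-DMb1: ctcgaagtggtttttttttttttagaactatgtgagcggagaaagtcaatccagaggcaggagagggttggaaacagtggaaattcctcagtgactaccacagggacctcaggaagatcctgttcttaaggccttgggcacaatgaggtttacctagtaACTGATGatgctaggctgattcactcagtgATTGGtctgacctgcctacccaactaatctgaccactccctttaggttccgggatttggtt
Cyp51: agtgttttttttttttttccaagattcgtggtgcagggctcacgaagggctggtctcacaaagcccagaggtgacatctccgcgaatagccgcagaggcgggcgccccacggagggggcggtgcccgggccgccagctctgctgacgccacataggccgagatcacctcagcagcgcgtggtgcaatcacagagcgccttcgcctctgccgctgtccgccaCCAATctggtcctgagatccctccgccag
Msmo1: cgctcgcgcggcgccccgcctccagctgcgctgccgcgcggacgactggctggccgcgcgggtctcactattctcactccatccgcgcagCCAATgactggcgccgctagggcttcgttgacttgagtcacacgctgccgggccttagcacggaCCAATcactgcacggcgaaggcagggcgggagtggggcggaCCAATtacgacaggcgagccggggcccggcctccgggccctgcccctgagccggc
CCAAT or ATTGG occurred in this window for 4 of 4 tested class II genes with an entry and for 14 of 16 sterol genes, against 33.8% of all 32851 windows. ACNGATG occurred in 3 of the 4 class II genes, in none of the sterol genes and in 8.31% of all windows. The ATTGG nearest the start began 59 bases before it in H2-Eb1, 48 in H2-Aa and 61 in H2-DMb1. ACNGATG began 88 bases before the start in H2-Eb1 and 91 in H2-DMb1, ahead of the ATTGG in both, whereas in H2-Aa it lay on the other strand 232 bases before the start. The window of H2-DMa held ATTGG once, 198 bases before the start, and no ACNGATG. A match describes these letters only, and no match overlapped another in the windows shown.

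Cd74, which guides class II molecules to the endosome, was at 1.83, 0.874 and 1.68 scaled TPM at day 14 and 46.8, 101 and 79.7 at day 42 (log2 fold change 4.92, SE 0.30, adjusted p = 0.000267). H2-Ab1, the beta chain of the I-A molecule, was at 2.38, 1.51 and 1.42 scaled TPM at day 14 and 14.37, 33.2 and 28.8 at day 42 (log2 fold change 3.19, SE 0.31, adjusted p = 0.00127). H2-Eb1 was at 0.372, 0.289 and 0.764 scaled TPM at day 14 and 7.67, 22.3 and 18.3 at day 42 (log2 fold change 3.43, SE 0.36, adjusted p = 0.00164). In all 3 genes day 42 replicate 1 was the lowest of its group and still above every day 14 library. H2-Aa, the alpha chain, rose from 0.0557 ± 0.0202 to 5.31 ± 2.603. The peptide-loading chains H2-DMa and H2-DMb1 rose from 0.361 ± 0.223 to 2.97 ± 0.657 and from 0.0985 ± 0.0261 to 2.26 ± 0.812. Ciita, the master activator of the pathway, rose from 0.206 ± 0.00263 to 1.31 ± 0.657 scaled TPM. The call of Ciita was lost without any 1 of the day 14 libraries. Leukocytes also express these genes. The 14 T cell markers summed to 0.794, 0.873 and 1.58 scaled TPM in the day 14 libraries and 1.98, 10.1 and 1.35 at day 42. The 10 B and plasma cell markers summed to 0.769, 1.18 and 0.657 and 0.734, 0.981 and 0.869, and the 10 macrophage markers to 1.36, 2.94 and 2.73 and 2.04, 1.28 and 1.24. Day 42 replicate 2, with the highest Cd74, also had the highest T cell sum, of which Gzma gave 4.77, while replicate 1 had the highest Ptprc (0.732) and the lowest Cd74. Trbc2, Ighm and C1qc were listed at 0 in all 6 libraries, and the part of leukocyte RNA in the rise was not tested. Of 16 MHC class I genes 7 rose and 2 fell (0 higher and 3 lower with TPM as deposited, 3 and 0 in the fit over all 17 libraries), among the rises H2-D1 (25.99 ± 4.08 to 54.2 ± 3.49), whose call was lost with TPM as deposited and in the fit over all 17 libraries.

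Of the genes known to answer to microbes, Reg3b, Reg3g and Pigr were among those that rose. Of 13 tested, 8 were higher and 1, Reg4, was lower, and 10 further members of the list, such as Saa1, were under the level filter. Of the 10 that passed it at both ages 5 were higher. Reg3b, an antimicrobial lectin (chromosome 6, 78370657 to 78373466), was at 73.2, 37.1 and 28.2 scaled TPM at day 14 and 150.2, 892 and 510.0 at day 42 (log2 fold change 3.23, SE 0.67, adjusted p = 0.0142). Its relative Reg3g was at 27.6, 5.70 and 3.66 scaled TPM at day 14 and 63.000, 256 and 148 at day 42 (log2 fold change 3.81, SE 0.77, adjusted p = 0.0134). Replicate 1 was the lowest and replicate 2 the highest day 42 library for both, and some reads of these related paralogs may be shared. Pigr, the receptor that exports IgA to the lumen, was at 228, 207 and 209.9 scaled TPM at day 14 and 565, 658 and 533 at day 42 (log2 fold change 1.44, SE 0.11, adjusted p = 0.000533), with little spread within either age. The oxidase Duox2, which releases hydrogen peroxide, was at 0.374, 0.599 and 0.291 scaled TPM at day 14 and 9.64, 13.9 and 14.35 at day 42 (log2 fold change 3.25, SE 0.16, adjusted p = 0.000144). Its maturation factor Duoxa2 rose from 0.110 ± 0.120 to 2.59 ± 0.752 and the nitric oxide synthase Nos2 from 0.281 ± 0.117 to 5.31 ± 2.14. Duox2, Duoxa2 and Nos2 passed the filter only through their day 42 level, so that their rise is a description. Of 13 Toll-like receptor and NF-kB genes 5 rose and 1, the flagellin receptor Tlr5, fell (0.967 ± 0.244 to 0.0596 ± 0.0194). Tlr5 passed the filter only through its day 14 level, so that its fall is a description. Over the 11 that passed at both ages 5 rose and 0 fell. The list held 3 higher and 4 lower with TPM as deposited, and 4 and 1 in the fit over all 17 libraries. With TPM as deposited its median changed sign, to -0.20. Of 20 interferon-stimulated genes 2 were higher and 3 lower (6 lower without day 14 replicate 2), near or below the 15.9% and 16.1% of all genes, with 1 higher and 7 lower with TPM as deposited, 0 and 2 in the fit over all 17 libraries. The 3 falls were of genes that passed the filter only through day 14, with Ifit1 at 8.08, 5.39 and 9.15 scaled TPM at day 14 and 0.684, 1.24 and 0.725 at day 42 (log2 fold change -2.17, SE 0.20, adjusted p = 0.00102).

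Of 16 tested glycosylation genes 11 rose and 2, both sialyltransferases, fell. St3gal1 was at 17.99, 15.1 and 18.1 scaled TPM at day 14 and 1.35, 1.53 and 1.95 at day 42 (log2 fold change -2.79, SE 0.11, adjusted p = 7.74e-05), and St3gal3 fell from 9.09 ± 0.797 to 2.47 ± 0.245. Among the rises were Fut8, which adds core fucose (3.88 ± 0.318 to 8.73 ± 0.511), Gmds, which makes GDP-fucose (17.7 ± 0.980 to 33.9 ± 2.64), and B4galnt2, a blood-group transferase (51.3 ± 5.78 to 95.2 ± 5.18). The fit over all 17 libraries held 7 rises. With TPM as deposited 2 rises and 3 falls passed, and the list median kept its sign (0.12).

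Genes of sterol synthesis rose. Of 24 tested genes 19 were higher and none lower, with a median of 0.60. Cyp51, the demethylase whose promoter is shown above, was at 3.35, 2.90 and 3.56 scaled TPM at day 14 and 9.20, 9.07 and 9.29 at day 42 (log2 fold change 1.26, SE 0.08, adjusted p = 0.000288). Squalene epoxidase, Sqle, rose from 2.71 ± 0.130 to 6.67 ± 0.380 and squalene synthase, Fdft1, from 4.55 ± 0.260 to 9.90 ± 0.339. The 3 libraries of each age were close together for all 3 enzymes, and the ranges did not overlap. With TPM as deposited 6 rises and 1 fall passed, and the median was 0.09 against -0.49 for all genes.

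Tuft cell genes were higher in 16 of 21 tested and lower in none, with a median of 1.61. Over the 16 that passed the filter at both ages 13 were higher, and with no filter 11 of 25 were. Trpm5, the taste-transduction channel of tuft cells, was at 1.70, 1.82 and 1.89 scaled TPM at day 14 and 18.3, 7.35 and 8.38 at day 42 (log2 fold change 2.03, SE 0.30, adjusted p = 0.00467). Avil, the actin-bundling advillin, was at 3.19, 2.52 and 3.39 scaled TPM at day 14 and 25.9, 10.7 and 10.8 at day 42 (log2 fold change 1.95, SE 0.32, adjusted p = 0.00689). Rgs13, a regulator of G proteins, was at 1.86, 1.076 and 1.30 scaled TPM at day 14 and 29.8, 8.04 and 9.06 at day 42 (log2 fold change 2.56, SE 0.46, adjusted p = 0.00869). Day 42 replicate 1 was the highest library for all 3 genes, well above the other two of its group. Without it 15 tuft genes passed and the median was 1.29.

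Enteroendocrine genes were higher in 17 of 27 and lower in 3, with a median of 0.86 (10 higher and 3 lower with TPM as deposited, 14 and 1 in the fit over all 17 libraries). Gcg, which encodes glucagon-like peptides, was at 24.23, 26.1 and 24.41 scaled TPM at day 14 and 117, 109.7 and 96.5 at day 42 (log2 fold change 2.07, SE 0.09, adjusted p = 9.34e-05). The endocrine transcription factors Insm1 and Isl1 rose from 1.22 ± 0.0169 to 4.97 ± 0.629 and 0.628 ± 0.0264 to 3.59 ± 0.449, and the progenitor factor Neurog3 from 1.12 ± 0.224 to 7.27 ± 2.05. Gip, the incretin with the highest level, was at 257, 173 and 215 scaled TPM at day 14 and 504, 787 and 274 at day 42, which did not pass (log2 fold change 1.17, SE 0.37, adjusted p = 0.0552), though it did without day 42 replicate 3. The 3 falls were the hormones Nts, neurotensin (132 ± 20.3 to 36.5 ± 6.91), and Pyy, peptide YY (23.2 ± 3.65 to 11.6 ± 4.87), and the granule protein Chga (136 ± 6.17 to 82.1 ± 14.7). The call of Pyy was lost without any library other than day 42 replicate 2. In the fit over all 17 libraries the calls of Pyy (adjusted p = 0.0568) and Chga (adjusted p = 0.0916) were lost.

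Paneth genes were lower in 8 of 20 and higher in none, with 12 that did not pass and a median of -0.81 (0 higher and 15 lower with TPM as deposited, 0 and 2 in the fit over all 17 libraries). The lectin-like Mptx1 was at 12.5, 7.03 and 9.55 scaled TPM at day 14 and 1.60, 0.412 and 0.459 at day 42 (log2 fold change -2.58, SE 0.29, adjusted p = 0.0019). The alpha-defensin Defa22 was at 119, 86.97 and 59.5 scaled TPM at day 14 and 16.6, 21.4 and 22.2 at day 42 (log2 fold change -2.04, SE 0.25, adjusted p = 0.00263). Its call was lost in the fit over all 17 libraries (adjusted p = 0.123). Defa34, a defensin outside the list, was at 179, 112 and 177 scaled TPM at day 14 and 5.76, 19.4 and 23.2 at day 42 (log2 fold change -3.36, SE 0.49, adjusted p = 0.00439). Defa24, the defensin with the highest level, was at 1747, 1119 and 1197 scaled TPM at day 14 and 470.1, 1009 and 786 at day 42, which did not pass (log2 fold change -0.88, SE 0.31, adjusted p = 0.0727). Reads of these near-identical genes may be divided among them. Goblet genes were 5 higher and 1, Galnt12, lower of 20, beside 15.9% higher and 16.1% lower of all genes tested. The goblet rises numbered 3 without day 42 replicate 1 or 3 or day 14 replicate 2 or 3. Agr2, a disulfide isomerase needed for mucin folding, was at 154, 116 and 113 scaled TPM at day 14 and 374, 262 and 273 at day 42 (log2 fold change 1.23, SE 0.18, adjusted p = 0.00444). Muc2, the main mucin, was at 213, 148 and 147 scaled TPM at day 14 and 259, 258 and 244 at day 42 (log2 fold change 0.60, SE 0.16, adjusted p = 0.0284), and lost the call without any library other than day 14 replicate 1. With TPM as deposited the goblet median changed sign, from 0.21 to -0.37.

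**Figure D3:**
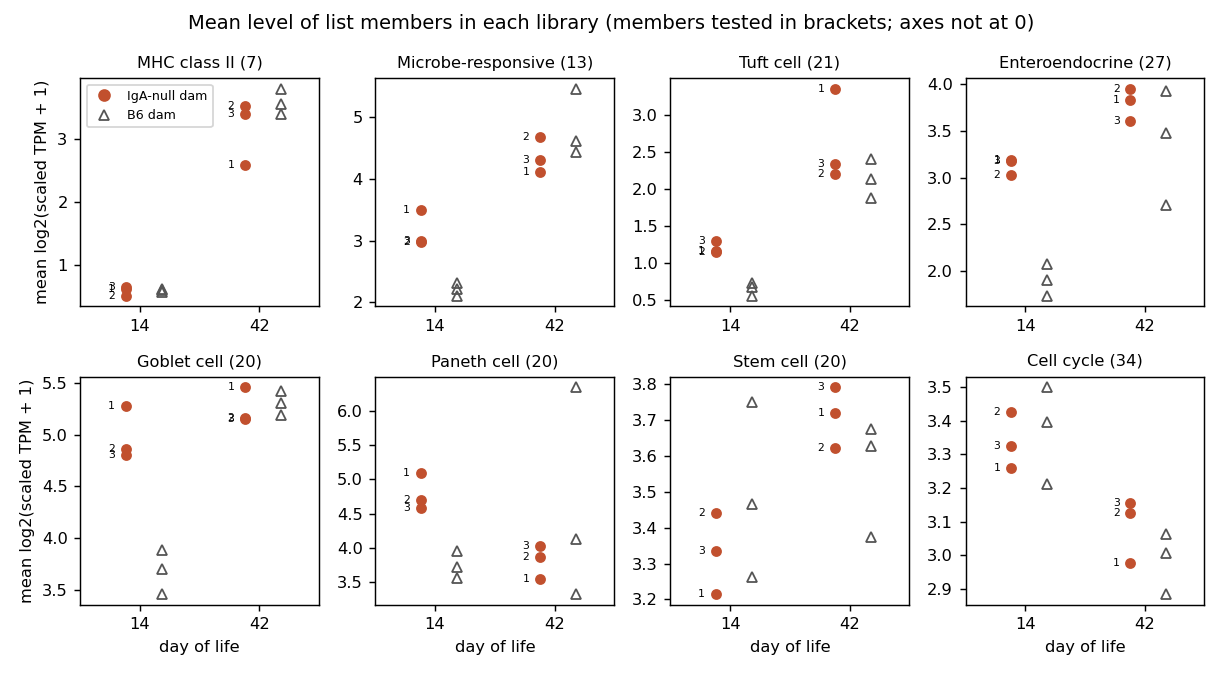
Mean log2(scaled TPM + 1) of the tested members of 8 lists at days 14 and 42, with filled circles for pups of IgA-null dams (numbers are replicates) and open triangles for pups of B6 dams. The tuft mean of day 42 replicate 1 is 3.35, against 2.19 and 2.33 for replicates 2 and 3. At day 14 the IgA-null dam means of the goblet, Paneth, enteroendocrine, tuft and microbe-responsive lists are all above those of the B6 dam group.

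Most stem cell markers that passed were higher, and most cell cycle genes that passed were lower. Of 20 stem cell genes 10 were higher and 1, the Wnt feedback ligase Rnf43, lower. Olfm4, a secreted stem cell glycoprotein, was at 362, 423 and 406 scaled TPM at day 14 and 795, 734 and 755 at day 42 (log2 fold change 0.94, SE 0.10, adjusted p = 0.00168). Cd44 rose from 2.53 ± 0.310 to 10.5 ± 1.04 and Prom1 from 8.65 ± 0.480 to 22.2 ± 0.252. Lgr5, the receptor that defines the crypt base stem cell, was at 3.72, 4.49 and 4.16 scaled TPM at day 14 and 4.26, 3.36 and 3.83 at day 42 (log2 fold change -0.09, SE 0.10, adjusted p = 0.508). With TPM as deposited the stem median was -0.22, with 4 rises and 9 falls, and the fit over all 17 libraries held 6 rises. Of 34 cell cycle genes 14 fell and 2 rose, with a median of -0.28 (0 higher and 32 lower with TPM as deposited, 0 and 5 in the fit over all 17 libraries), and the falls numbered 9 without day 42 replicate 1 or day 14 replicate 2. Top2a, a topoisomerase of dividing cells, was at 30.1, 32.05 and 32.002 scaled TPM at day 14 and 18.4, 21.04 and 21.3 at day 42 (log2 fold change -0.61, SE 0.08, adjusted p = 0.00312). Replication-dependent histone genes, looked at after the values were seen, fell in 41 and rose in 2 of 58, with a median of -1.05. Some of the falls, such as that of Hist1h2ao (2.34 ± 0.699 to 0.420 ± 0.395), were of genes that passed the filter only through day 14.

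The clock list held 11 falls and 3 rises among 17 genes (0 higher and 12 lower with TPM as deposited, 3 and 8 in the fit over all 17 libraries). Over the 14 that passed the filter at both ages 8 fell and 3 rose. Per2, a repressor of the clock, was at 7.45, 8.78 and 8.02 scaled TPM at day 14 and 1.79, 1.26 and 1.64 at day 42 (log2 fold change -1.83, SE 0.10, adjusted p = 0.000227). Cry1, its partner, fell from 4.24 ± 0.633 to 1.31 ± 0.0857. Arntl, which activates them, was at 2.87, 2.09 and 2.54 scaled TPM at day 14 and 3.88, 4.14 and 4.23 at day 42 (log2 fold change 0.54, SE 0.10, adjusted p = 0.00854). Its log2 fold change with TPM as deposited was 0.06 (adjusted p = 0.754). The labels give no hour of collection, so time of day was not tested. Of 20 antioxidant genes 11 were higher and 5 lower (2 higher and 6 lower with TPM as deposited, 9 and 1 in the fit over all 17 libraries), and the falls numbered 3 without day 42 replicate 1 or 3. Gpx2, the glutathione peroxidase of the crypt, was at 12.2, 11.1 and 9.11 scaled TPM at day 14 and 36.4, 48.8 and 45.6 at day 42 (log2 fold change 1.92, SE 0.14, adjusted p = 0.000512). Its secreted relative Gpx3 was at 18.6, 16.96 and 27.2 scaled TPM at day 14 and 3.28, 4.72 and 2.55 at day 42 (log2 fold change -2.28, SE 0.23, adjusted p = 0.00137). The tight junction protein Cldn3 rose from 51.1 ± 5.16 to 113 ± 4.01 and the carbonic anhydrase Car4 from 0.0309 ± 0.0321 to 15.2 ± 2.55 scaled TPM.

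Genes of protein folding in the endoplasmic reticulum rose in 8 of 20 and fell in 1 (0 higher and 10 lower with TPM as deposited, 6 and 0 in the fit over all 17 libraries), and with TPM as deposited the median changed sign, from 0.22 to -0.38. Immediate early genes fell in 6 and rose in 1 of 15 (0 higher and 13 lower with TPM as deposited, 0 and 6 in the fit over all 17 libraries), and Jun, a stress-induced factor, was at 41.6, 74.2 and 40.9 scaled TPM at day 14 and 11.9, 21.8 and 18.3 at day 42 (log2 fold change -1.52, SE 0.29, adjusted p = 0.0113). Of the stromal markers, Vim, which some epithelial cells also make, was at 1.62, 1.44 and 1.550 scaled TPM at day 14 and 7.03, 5.25 and 6.05 at day 42 (log2 fold change 1.48, SE 0.10, adjusted p = 0.000401). The 11 fibroblast and muscle markers summed to 2.13, 2.03 and 1.73 at day 14 and 7.33, 5.40 and 6.28 at day 42, and the 7 endothelial markers to 0.487, 0.804 and 0.653 and 1.21, 1.86 and 1.11. Vim gave most of the first sum at each age, and the collagen Col1a2 stayed at or below 0.00790 and the proteoglycan Dcn was listed at 0 in all 6 libraries. The part of stromal RNA in the results was not tested.

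The same age step was measured in pups of B6 dams, whose milk carries IgA, with 3 libraries at each age. There 1554 of 13022 genes passed. B6 dam day 42 replicate 1 stood apart from replicates 2 and 3 in some list means of log2(scaled TPM + 1). It had 5.80 against 3.61 and 4.10 for fat absorption and 6.34 against 3.32 and 4.12 for Paneth genes, but 5.30 against 5.19 and 5.42 for goblet genes. The part of this library in the count of 1554 was not tested. Genes called with the same sign in both dams numbered 1119, which is 24.6% of the calls with the IgA-null dam and 72.01% of those with the B6 dam, and 7 were called with opposite signs. The age change differed between the dams for 207 of 14925 genes (1.39%), and 2512 had an unadjusted p under 0.05. It was more negative with the IgA-null dam for 145 and more positive for 62, a split that with TPM as deposited became 224 and 3. This count leaned on single libraries. It was 53 to 109 without 1 of the 6 IgA-null dam libraries. Without B6 dam day 14 replicate 1, 2 or 3 it was 73, 168 and 354. Without B6 dam day 42 replicate 1, 2 or 3 it was 273, 87 and 70. In a fit over all 17 libraries it was 6.

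**Figure D4:**
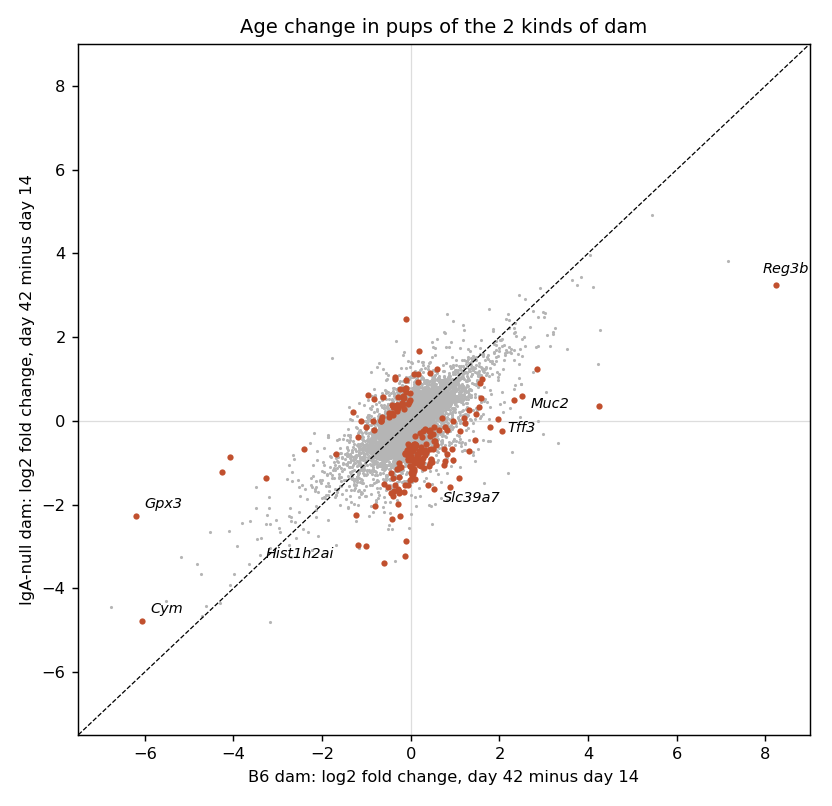
Log2 fold change from day 14 to day 42 in pups of B6 dams (horizontal) and of IgA-null dams (vertical) for 12710 genes tested in both, with the 198 of them whose change differed between dams in red and the line of equal change dashed. Reg3b lies far below the line, with a difference of -4.997, and Gpx3 above it, with 3.93.

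Of 20 goblet cell genes 10 passed the test of the difference, against 1.39% of all genes. Muc2 was at 213, 148 and 147 scaled TPM at day 14 and 259, 258 and 244 at day 42 in the IgA-null dam group. In the B6 dam group it was at 58.1, 38.3 and 52.1 at day 14 and 327, 254 and 269 at day 42 (difference of the log2 fold changes -1.90, SE 0.26, adjusted p = 0.00918). Tff3, a trefoil peptide of mucus named after its values were seen, was at 537, 380.4 and 364 scaled TPM at day 14 and 478, 414 and 405 at day 42 in the IgA-null dam group. In the B6 dam group it was at 148, 101 and 117 at day 14 and 505, 422 and 511 at day 42 (difference of the log2 fold changes -1.94, SE 0.25, adjusted p = 0.0084). For both, the IgA-null dam libraries at day 14 lay above those of the B6 dam, and at day 42 the ranges of the dams overlapped. Agr2 showed the same sign (difference of the log2 fold changes -1.61, SE 0.31, adjusted p = 0.0406). The list median over age was 0.21 in the IgA-null dam group and 1.56 in the other. The day 14 means of the Paneth, enteroendocrine, tuft and microbe-responsive lists also lay above those of the B6 dam. The difference passed for 1 of 20 Paneth, 1 of 27 enteroendocrine, 1 of 13 microbe-responsive and 0 of 21 tuft genes. The median of the differences was -1.80 for Paneth genes and -1.17 for goblet genes.

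Reg3b rose in both dams, from 2.36 ± 0.697 to 1039.7 ± 389 scaled TPM in pups of B6 dams, and its rise was smaller with the IgA-null dam (difference of the log2 fold changes -4.997, SE 0.81, adjusted p = 0.0219). Its level at day 14 was 46.2 ± 23.8 with the IgA-null dam. Gpx3 fell in both, from 319 ± 210.1 to 2.61 ± 0.789 with the B6 dam (difference of the log2 fold changes 3.93, SE 0.68, adjusted p = 0.0271), as did Cym (difference of the log2 fold changes 1.29, SE 0.26, adjusted p = 0.0442). Lysosomal genes had a median of -0.02 in the IgA-null dam group and -0.997 in the B6 dam group, and 3 of 32 passed the test of the difference, Lgmn, Ctsl and Gaa. The lysosomal list mean of B6 dam day 14 replicate 3 was 3.27, against 4.11 and 4.45 for replicates 1 and 2. With the IgA-null dam the day 14 means were 2.94, 2.71 and 2.97. The part of this B6 dam library in the contrast was not tested. Of the 10 milk uptake genes, the 21 tuft genes, the 24 sterol genes and the 7 MHC class II genes, none passed it, which does not show that these genes changed alike.

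The 10 named genes with the smallest adjusted p for a difference were all more negative with the IgA-null dam. Slc39a7, which moves zinc out of the secretory pathway (chromosome 17, 34028269 to 34031682), was at 11.02, 10.4 and 11.96 scaled TPM at day 14 and 2.97, 2.97 and 2.70 at day 42 in the IgA-null dam group. In the B6 dam group it was at 1.67, 2.09 and 1.54 at day 14 and 2.77, 3.11 and 3.06 at day 42 (difference of the log2 fold changes -2.17, SE 0.12, adjusted p = 5.78e-05). Hist1h2ai, a replication-dependent histone, was at 93.9, 88.2 and 86.2 scaled TPM at day 14 and 10.6, 9.57 and 11.3 at day 42 in the IgA-null dam group. In the B6 dam group it was at 25.6, 25.4 and 21.7 at day 14 and 11.3, 9.64 and 9.45 at day 42 (difference of the log2 fold changes -1.80, SE 0.14, adjusted p = 0.000521). Taf15, an RNA-binding protein, was at 37.2, 39.6 and 38.4 scaled TPM at day 14 and 22.4, 22.6 and 22.1 at day 42 in the IgA-null dam group. In the B6 dam group it was at 18.7, 19.5 and 21.3 at day 14 and 23.8, 22.8 and 23.2 at day 42 (difference of the log2 fold changes -0.98, SE 0.10, adjusted p = 0.00305). In each of the 3 genes the day 14 libraries of the IgA-null dam stood above the other 9 libraries. These genes were taken by a more negative change, which a high day 14 level with the IgA-null dam gives. At day 14 the 3 IgA-null dam libraries lay above the 3 B6 dam libraries for all 145 genes called with a more negative change, against 16.1% of the 14925 genes tested. At day 42 they lay above for 3 of the 145 (2.07%) and below for 28 (19.3%), against 4.59% and 3.66% of all genes tested. For the 62 with a more positive change they lay below at day 14 for all 62, against 15.2% of all genes tested. At day 42 they lay above for 21 of the 62 (33.9%), so the dams also stood apart at day 42 for part of both sets. Among the 10, the difference was -0.88 (adjusted p = 0.00381) for Hnrnpul2, which binds RNA, -1.56 (adjusted p = 0.00606) for Pabpn1, a poly(A)-binding protein, and -1.40 (adjusted p = 0.00606) for Gar1, of the small nucleolar particle.

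**Figure D5:**
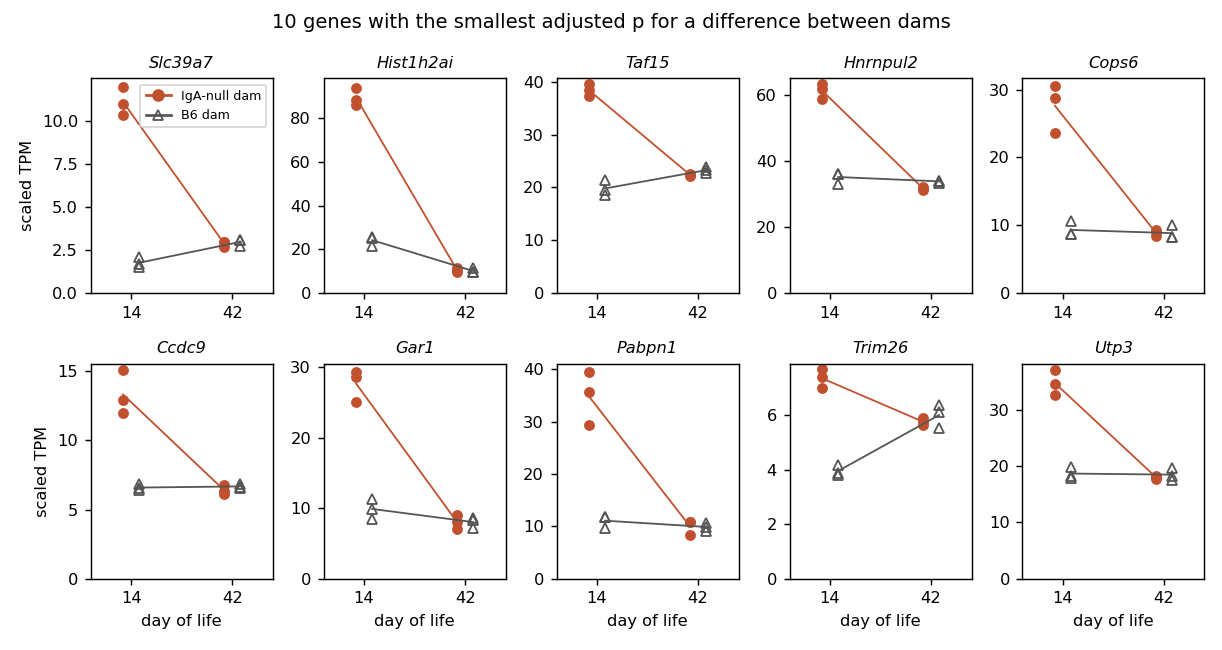
Scaled TPM at days 14 and 42 of the 10 named genes with the smallest adjusted p for a difference between dams, with 1 mark per library (circles for the IgA-null dam, triangles for the B6 dam) and lines through the means. In each panel the 3 circles at day 14 lie above all triangles at day 14, and the marks of the dams are closer at day 42. For Taf15 and Hnrnpul2 all circles at day 42 lie below all triangles.

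Other values of the day 14 libraries moved with this result. Rn7sk, a nuclear RNA without a poly(A) tail that was looked at after the values were seen, was at 19739, 19337 and 18309 scaled TPM at day 14 and 3351, 3165 and 5059 at day 42 in the IgA-null dam group. In the B6 dam group it was at 6559, 6126 and 4605 at day 14 and 4057, 5192 and 3611 at day 42 (difference of the log2 fold changes -1.91, SE 0.32, adjusted p = 0.0244). It was the only one of the 12 nuclear and small RNAs looked at in this way whose difference passed. Among named small RNAs outside these 12, the difference of Vaultrc5, Snord15a, Scarna6, Mir5135 and Mir717 also passed and was more negative. That of Mir16-2 passed and was more positive. These too were picked after their values were seen. Size factors at day 14 were 1.41 to 1.84 in the IgA-null dam group and 1.14 to 1.21 in the B6 dam group, and recovered depth was 8477226 to 11337164 and 11310851 to 13636442 reads. Genes other than Gm23935 and the mitochondrial ones shared 24.7 to 30.9% of deposited TPM at day 14 in the IgA-null dam group and 18.8 to 19.7% in the B6 dam group. Pseudogenes made up 17.2% of the 145 genes with a more negative change, 9.29% of all tested, and also 20.97% of the 62 with a more positive change. Protein-coding genes made up 59.3%, 71.8% and 72.6%. The numbers read as dates differ between the dams at day 14 and are the same at day 42, so that at day 14 dam and this number cannot be told apart. The part of depth and RNA composition in the difference was not tested.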

How the data were processed

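Per the submitters' processing notes, reads were handled with Bowtie2, Subread and DESeq2 on mm10, with no roles or versions named, and the values the authors deposited are TPM per gene symbol for 17 libraries. From these, 1 median-of-ratios size factor per library was computed over the genes above 0 in all libraries, and scaled TPM is TPM divided by it. Genes with a deposited TPM of at least 1 in at least 2 of the compared libraries were tested with limma 3.58.1 in R 4.3.3 (intensity trend) on log2(scaled TPM + 1), with Benjamini-Hochberg adjustment over all genes tested and a threshold of 0.05. The difference between dams is the interaction term of a fit over 12 libraries. The procedure was tested on simulated data. Fold changes on this scale understate the change of low genes.

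Multiplying TPM by exon length (GENCODE M21, GRCm38, also the source of gene coordinates) gave whole reads, within 0.01 reads or a relative 0.0001, for 93.6% of values, and the depth given is the sum of these reads. A limma-voom fit on them was added after seeing the data and called 4592 genes. Depth limits the precision of values near 0. Strand was not given in the sources used here, so overlapping and antisense genes cannot be separated, and reads of defensin, Reg3, histone and MHC paralogs may be divided among copies.

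Named genes were the 15 largest rises and 15 largest falls with a mean of at least 10 scaled TPM in the higher group and no overlap between ages, from every list its 4 genes of lowest p (fewer in short lists) and the one with the highest mean, check genes, and the 10 genes whose dam difference had the lowest adjusted p. Members named outside this rule (Arntl, Chga, Ciita, Ctsc, Ctsd, Ctsh, Nagpa, Scpep1, H2-Aa, H2-DMb1, Lgr5, Nts, Pyy, Tff3, Rn7sk, the small RNAs named beside it and single list members named beside a count) were chosen after their values were seen. A few genes that the rule names are not reported here. The comparison and the lists were chosen with earlier results of these data known. Sample numbers recur at both ages; correlations of deviations between same-numbered samples were -0.05, -0.13 and -0.09, so the numbers were not taken as pairs. Promoters came from RefSeq (GRCm38.p6). Other alternatives changed the pseudocount, filter, scaling, weights and libraries in the fit. Figures and tables used Python 3.11.15 with numpy 2.4.6, pandas 2.3.3 and matplotlib 3.10.9.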

Additional observations from a re-analysis of the deposited data

Results flagged for a closer look

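The age change differed between the dams, by the interaction test, for 207 genes. With the IgA-null dam as the first term, the difference of the log2 fold changes was -4.997 for Reg3b, 1.29 for Cym and 3.93 for Gpx3. For goblet cell genes it was -1.90 for Muc2, -1.94 for Tff3 and -1.61 for Agr2. The fucosylation genes Fut8 and Gmds had -0.62 and -0.66, the endocrine granule gene Chga -2.05 and the nuclear RNA Rn7sk -1.91. For the 10 genes with the smallest adjusted p it was -2.17 for Slc39a7, -1.80 for Hist1h2ai, -0.98 for Taf15, -0.88 for Hnrnpul2, -1.46 for Cops6, -0.96 for Ccdc9, -1.40 for Gar1, -1.56 for Pabpn1, -0.80 for Trim26 and -0.89 for Utp3. With 3 libraries per group, single libraries far from their group were not tested for.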

How the results depend on the processing

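Of the 114 genes with a fold change or difference given, 87 kept their direction and their side of the threshold under every alternative that gave them a value, and calls were lost for 12 in a fit over all 17 libraries and for 9 with TPM as deposited. The count of called genes was 8086 with TPM as deposited (343 higher, 7743 lower), 2536 with all 17 libraries in the fit (1279 higher, 1257 lower), and 2923 to 3939 with 1 library left out (1461 to 1982 higher, 1458 to 1957 lower). Lower calls numbered 1503 with a TPM of at least 5, where fewer genes were tested. With the replicate number as a block, 2881 genes passed (1416 higher, 1465 lower) and 89 differed between dams, but the samples share only a number. The count that differed between dams was 94 with no filter, 130 with quantile normalisation, 1626 with library weights, 6 with all 17 libraries in the fit, 166 with limma-voom on recovered reads and 53 to 354 with 1 library left out. The log2 fold change of Muc2 was -0.027 with TPM as deposited, against 0.60. That of Tff3, 0.04 and not called, was -0.60 with TPM as deposited and -0.0675 to 0.21 with 1 library left out, with -0.04 without day 42 replicate 1, -0.04 without day 14 replicate 2 and -0.0675 without day 14 replicate 3. The causes were not tested. The day 14 libraries were the shallower of the 6, which limits low genes at that age.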
